A study of Mus musculus with 41 samples.

Results

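The genes described here are 10 targets of the transcription factor ATF4 that serve amino acid supply: Asns, Psat1, Phgdh, Shmt2, Mthfd2, Chac1, Trib3, Slc7a11, Slc7a5 and Slc7a3. They were chosen by name, with earlier results of these data known. All 10 were found among the 22438 genes with footprint counts and among the 55385 genes with RNA values. The study asked how mice and cells respond when surveillance of stalled ribosomes (Hbs1l, Pelo) or nonsense-mediated decay (Upf2) is lost. Ribosome profiling, which sequences the stretches of RNA that ribosomes protect from nuclease, was done on 30 libraries, and RNA of fibroblasts was sequenced in 11 libraries. Whole C57BL/6NJ embryos at E8.5, pooled for each replicate, were Hbs1l -/- (n = 3) or wild type (n = 3). Cerebella of C57BL/6J mice at P14, 1 mouse per replicate, were Atoh-Cre;Hbs1l cKO (n = 3) or Atoh-Cre;Hbs1l +/+ (n = 3). The Atoh1-Cre transgene carried by both groups acts mainly in the granule cell lineage and not in all cells of the cerebellum. Mouse embryonic fibroblasts (MEFs) of strain C57BL/6, each replicate from 1 embryo, carried the tamoxifen-inducible CAG-Cre ER with a conditional allele of Hbs1l, Pelo or Upf2 (n = 3 each), or CAG-Cre ER alone, and every MEF culture, controls included, was treated with tamoxifen. Each MEF genotype had 3 control footprint libraries from its own sequencing pool. RNA came from 3 Hbs1l-/-, 2 Pelo-/-, 3 Upf2-/- and 3 control MEF cultures, the controls being common to all 3 comparisons.

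ATF4 is translated more when eIF2α is phosphorylated, as happens in amino acid shortage and other stresses, and it then binds composite C/EBP-ATF elements near genes that restore the supply of amino acids. Asns makes asparagine, while Phgdh and Psat1 catalyse the opening steps of serine synthesis from glycolytic carbon. Shmt2 and Mthfd2 pass the carbon of serine into mitochondrial folate. Chac1 degrades glutathione, and Trib3 is a pseudokinase that restrains ATF4 and AKT signalling. The remaining members are transporters, Slc7a11 for cystine, Slc7a5 for large neutral amino acids and Slc7a3 for cationic amino acids such as arginine.

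On mouse build GRCm38 (Gencode M21 annotation) the genes lie on 7 chromosomes. Asns (chr6:7675169-7693254), Mthfd2 (chr6:83305691-83325908), Phgdh (chr3:98313170-98339990), Psat1 (chr19:15904678-15947337), Shmt2 (chr10:127517123-127522444), Trib3 (chr2:152337422-152344032), Slc7a11 (chr3:49892526-50443614), Slc7a5 (chr8:121881150-121907694) and Slc7a3 (chrX:101079210-101086020) are on the minus strand, and Chac1 (chr2:119351229-119354381) is on the plus strand.

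The promoters were searched for the core of the C/EBP-ATF element, TGATGNAA, and for its reverse complement TTNCATCA, so that both strands were covered. The window ran from 250 bases before to 50 bases after the transcription start in RefSeq (build GRCm38.p6), where 8 of the 10 members had an entry; those for Slc7a5 and Slc7a3 were not found. The element was present in 4 of these 8 members, and in 4.51% of all 27025 genes in the table (3.97% of its 32851 promoters). The sequences that carry it are shown 5′ to 3′ on the strand of the gene, with the match in capitals, since they are candidate ATF4 sites of these genes. Asns, Trib3 and Slc7a11 lie on the minus strand and Chac1 on the plus strand.
Asns (chr6:7693214-7693243): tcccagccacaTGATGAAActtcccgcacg
Chac1 (chr2:119351019-119351086): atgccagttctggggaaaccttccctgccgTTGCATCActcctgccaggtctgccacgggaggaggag
Trib3 (chr2:152344028-152344057): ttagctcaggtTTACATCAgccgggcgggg
Slc7a11 (chr3:50443623-50443709): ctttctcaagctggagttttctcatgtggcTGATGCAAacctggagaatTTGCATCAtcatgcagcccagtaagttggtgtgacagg
From the RefSeq start, the Asns match began 23 bases before it and that of Chac1 193 bases before it. That of Trib3 began at base 15 of the transcript. By the Gencode bounds given above, however, the Asns match lies inside the gene and the Trib3 match lies before its start. Slc7a11 held 2 matches in opposite orientation, which began 66 and 47 bases before the start. Psat1, Phgdh, Shmt2 and Mthfd2 held no match in this window, and a match is a description of letters, not evidence that the factor was bound.

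Libraries held between 2634480 and 7298812 footprints in embryos, 10919139 and 22591768 in cerebella and 5782990 and 25607974 in MEFs, and between 22713643 and 86425762 estimated RNA counts in MEFs. Levels are given in CPM, the counts of a gene scaled to the size of its library with TMM, unless another unit is named. The targeted gene was lowered in Hbs1l and Pelo mutants. Hbs1l footprints fell by 3.60 on the log2 scale in embryos, fell by 1.50 in cerebella and fell by 4.15 in MEFs, and Pelo footprints fell by 3.78 in Pelo-/- MEFs. Upf2, in contrast, was higher in the MEFs labelled Upf2 -/-, by 1.09 in footprints and 1.33 in RNA. Counts summed over the gene do not isolate the deleted exons, so that they do not check this label, and these cells are called the libraries labelled Upf2-/- throughout. The marker genes fitted the tissue labels: 6 of 6 granule neuron markers were above 1 CPM in the cerebellum, and all 8 fibroblast markers in the MEFs, where granule neuron markers summed to at most 1.69 CPM. MEF control footprint libraries with the same number in different pools differed little (chi-square per gene between 1.10 and 1.20, against 4.32 to 12.7 for different numbers). The 3 MEF footprint comparisons therefore rest on nearly the same controls, and their values are set side by side without a test of overlap.

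In control tissue the 10 genes differed widely in footprints. For these levels all control libraries were scaled together, and MEF control libraries with the same number were summed, which left 3 samples per tissue. MEFs had the highest mean of 9 of the 10 genes. Slc7a11 was the exception, with its highest level in the cerebellum and its lowest in the embryo, where its 3 libraries held 3, 2 and 1 counts. Counts were also few for Chac1 in embryos (3, 1 and 7) and for Trib3 in cerebella (7, 3 and 16), their lowest tissues, so no fold is given for these 3 genes. Mthfd2 was 16.8-fold higher in MEFs than in cerebella. Slc7a5 varied least, by 2.40-fold. Psat1 had 524 ± 71.5 CPM in MEFs, 385 ± 21.8 in embryos and 102 ± 8.25 in cerebella (SD, n = 3 each). Neighbours in the order of tissues overlapped in 2 cases: Asns between cerebella (97.3 to 144) and embryos (116 to 133), and Phgdh between MEFs (50.5 to 65.6) and embryos (41.0 to 53.7). Tissue, strain and batch change together here, so these orders are descriptions with no test.

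**Figure D1:**
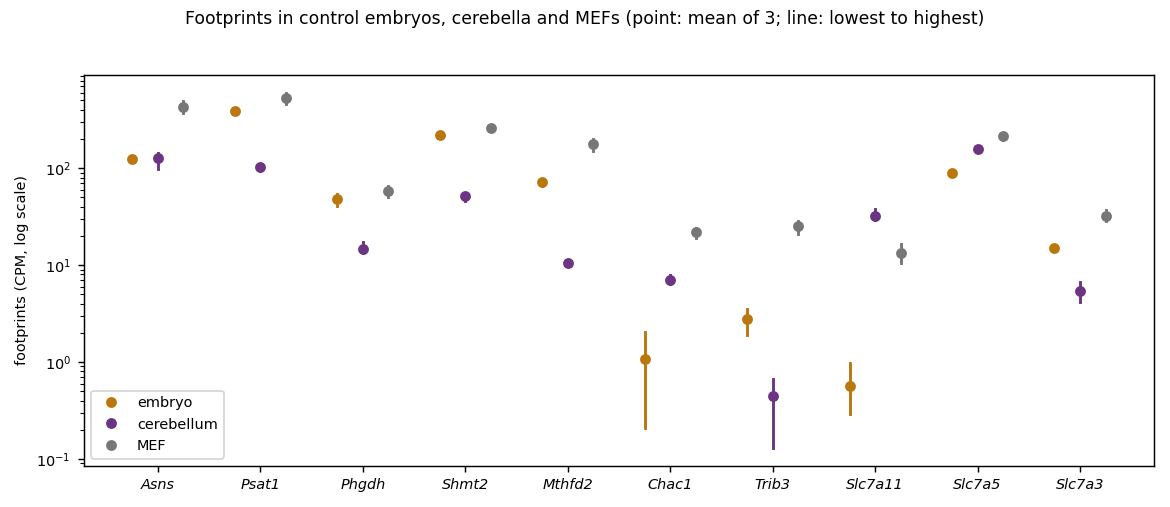
Footprints of the 10 genes in control embryos, cerebella and MEFs, in CPM on a log axis; points are means of 3 samples and lines run from the lowest to the highest sample. MEFs were highest for 9 of the 10 genes and the cerebellum for Slc7a11.

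Divided by the length of the coding sequence, the footprint level of control MEFs ran from 472 ± 64.4 CPM per kb for Psat1 and 253 ± 37.2 for Asns down to 17.4 for Slc7a3 and 8.85 for Slc7a11 (SD, n = 3). RNA in TPM (the share of transcripts, also per length) gave another order. Phgdh led with 317 ± 63.4 TPM (SD, n = 3), while its footprints came to only 36.4 CPM per kb. In the Phgdh transcript, however, 75.3% of all stretches of 28 bases also occurred in transcripts of 24 other genes, most of all in Gm7901. The share was at most 5.88% for the other 9 members, with some shared stretches in Shmt2, Psat1, Slc7a11 and Slc7a5 and none in the other 5. Reads of Phgdh could thus be split between near-identical copies to a large extent, and its values are uncertain.

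The first question was how the set responded to loss of Hbs1l in embryos. Footprints on Asns and Slc7a3 rose, and no member fell. Slc7a3, the cationic amino acid transporter, had 75.5, 69.7 and 43.9 CPM in the 3 mutant libraries and 17.0, 18.3 and 19.1 in the wild-type libraries. Every mutant library lay above the highest control. The log2 fold change came to 1.81 with a standard error of 0.23 (Benjamini-Hochberg adjusted p = 0.00127, quasi-likelihood test of edgeR, as for every adjusted p that names no other tool). Asns, asparagine synthetase, had 230, 275 and 254 CPM in mutants and 152, 141 and 161 in controls, again without overlap (log2 fold change 0.74, standard error 0.14, adjusted p = 0.0208). These 2 genes were called among 8 members that passed the filter on low counts, while 1.87% of all 11416 genes tested were called and 0.92% were called higher. The number called over all genes, 214, moved to between 28 and 2309 when 1 library was left out. The median log2 fold change of the 8 members was 0.35, against 0.01 over all genes.

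Among the other members in embryos, Slc7a5 had 191, 154 and 139 CPM in mutants and 105, 111 and 106 in controls. Its groups did not overlap either, but the adjusted p of 0.0721 missed the threshold (edgeR, log2 fold change 0.59), which it passed without mutant replicate 1 (adjusted p = 0.0283), where 20.3% of all genes were called. Psat1 with 543, 631 and 557 CPM against 456, 443 and 494 (0.31, adjusted p = 0.23) and Mthfd2 (0.24, adjusted p = 0.401) did not pass. In all, 5 members were without overlap upward, as were 11.4% of all genes. Phgdh gave -0.36, Shmt2 0.03 and Trib3 0.39, with overlapping groups, and in that same fit without mutant replicate 1 Phgdh was called lower (-0.74, adjusted p = 0.0122). Chac1 had 35, 4 and 11 counts in mutants and 3, 1 and 7 in controls, and Slc7a11 had at most 8 counts in any library. Neither passed the filter on low counts, so neither was tested and nothing is said of a difference.

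The embryo libraries also differed in cell type markers. The summed level of 6 trophoblast markers was 134, 82.3 and 640 CPM in mutants and 7.90, 7.61 and 5.31 in controls, with Ctsq at 0 in every library. Primitive erythroid markers (5 of 5 detected) summed to between 3176 and 8678 CPM in mutants and between 13037 and 17027 in controls, and cardiomyocyte markers (7 of 7) to between 774 and 1119 against 1842 and 2098. Their part in the result was not tested, and in bulk tissue fewer cells of a type and less RNA per cell cannot be told apart. Without the mutant library with the highest trophoblast level, Slc7a3 gave 2.00 (adjusted p = 6.41e-05) and Asns 0.74 (adjusted p = 0.0396). The mutant libraries kept in that fit still had 134 and 82.3 CPM of trophoblast markers. That fit therefore does not test the part of cell types in these calls. Leaving out any 1 of the control libraries ended the call of Asns, with adjusted p between 0.134 and 0.153 (edgeR).

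In the cerebellum all 10 members were tested and none passed (edgeR), where 0.0624% of all 14430 genes were called. At an unadjusted p under 0.05 there were 4 members (13.4% of all genes), and DESeq2 called 1 (3.18% of all genes). Slc7a11, the cystine transporter, had 60.9, 46.4 and 57.7 CPM in mutants and 32.1, 33.2 and 41.2 in controls. The groups did not overlap, yet the log2 fold change of 0.63 had an adjusted p of 0.132 by edgeR and 0.0193 by DESeq2. Without control replicate 3 it was called by edgeR as well (0.75, adjusted p = 0.0314). Slc7a3 had 17.98, 4.56 and 16.2 CPM against 7.41, 6.04 and 4.54 (1.14, adjusted p = 0.318). Its mutant libraries split, with replicate 2 inside the range of the controls, and without that library its value was 1.53 with an adjusted p of 0.0453. Shmt2 (0.41), Phgdh (0.45) and Psat1 were also without overlap, so that 4 members did not overlap upward, against 9.38% of all genes. Asns gave -0.16 and Slc7a5 0.06, with 95% intervals from -0.50 to 0.19 and from -0.15 to 0.28. Purkinje cell markers (5 of 5 detected) summed to between 4602 and 6139.7 CPM in mutants and between 6382 and 12313 in controls, and granule progenitor markers to between 123 and 167 against 65.0 and 70.9. Their part in these values was not tested. When the change in embryos was set against that in cerebella over the 12 libraries, no member differed (edgeR, against 0.732% of all 14624 genes), while 3 (Phgdh, Asns and Slc7a5) had an unadjusted p under 0.05 (15.7% of all genes) and DESeq2 called 2 (Asns and Slc7a5, against 4.2%). Chac1 and Slc7a11, too low in embryos, entered this test through the cerebellum, and their values in it say nothing of a change in embryos. Tissue, strain and batch also change together in this test.

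**Figure D2:**
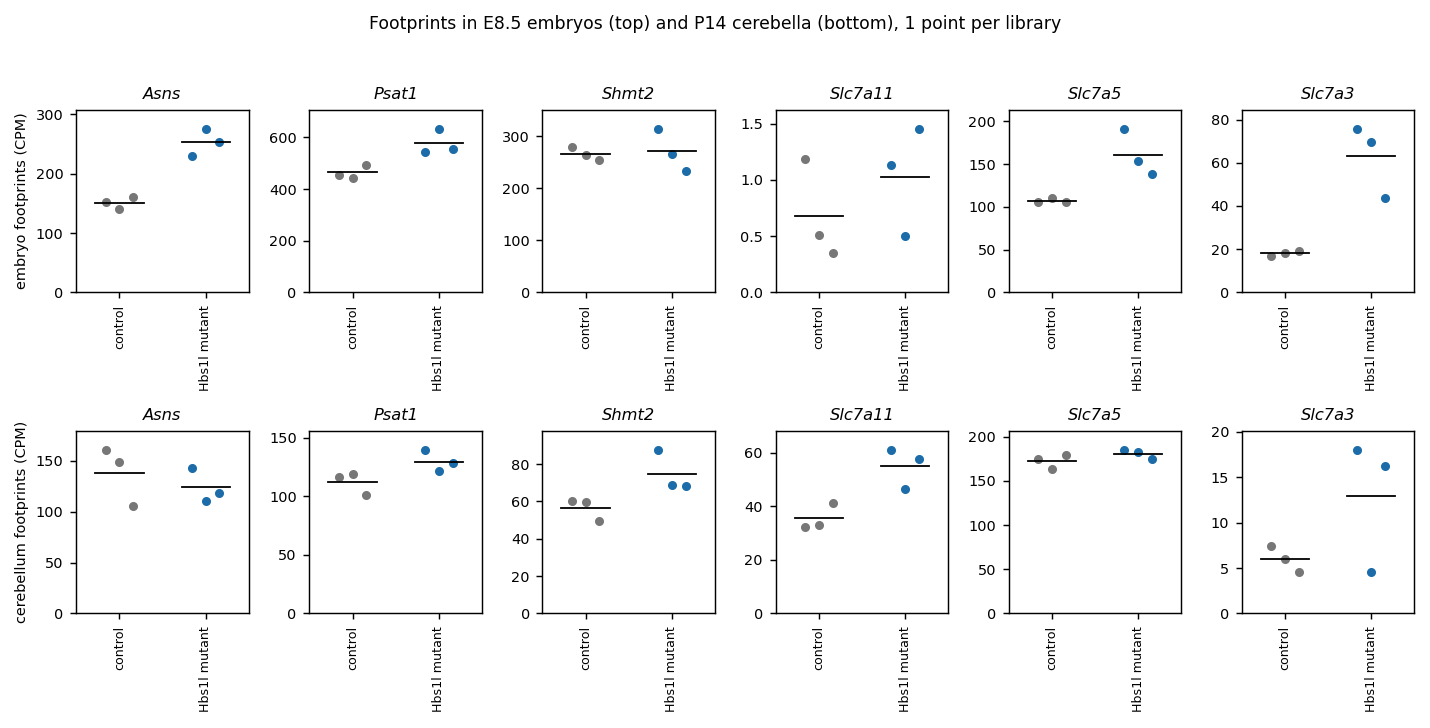
Footprints on 6 of the genes in embryos (top row) and cerebella (bottom row), in CPM; each point is 1 library, with 3 per group, and bars are means. In embryos Asns, Psat1, Slc7a5 and Slc7a3 do not overlap between groups, and in cerebella 1 mutant library of Slc7a3 lies among the controls.

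The same question in MEFs covered 3 genotypes. In Pelo-/- MEFs 8 of the 10 members rose in footprints, where 22.9% of all 12486 genes tested were called higher and 44.1% were called in either direction. In the libraries labelled Upf2-/- 7 members rose, against 22.3% of 12166 genes called higher and 43.4% in all. In Hbs1l-/- MEFs 4 members rose and Chac1 fell, against 17.4% of 11984 genes called higher, 16.7% called lower and 34.1% in all. The median log2 fold change of the members was 0.70, 0.59 and 0.21 in Pelo-/-, Upf2-labelled and Hbs1l-/- MEFs, and that of all genes was within 0.01 of 0 in each. Mutant libraries all lay above their controls for 9, 7 and 4 members in the same order, where 28.6%, 27.4% and 23.4% of all genes did so, and below them for Chac1 in Hbs1l-/- MEFs, where 23.0% did. The fibroblast markers summed to between 33030 and 38820 CPM in mutants and between 28271 and 29752 in controls, and the macrophage markers (Ptprc, Cd68, Csf1r, Adgre1 and Lyz2, all detected) reached 353 to 507 CPM in Pelo-/- cells against 94.8 to 127 in the pool's controls. Their part in these results was not tested.

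Of the synthetic enzymes, Psat1 rose in all 3 genotypes. It had 574, 562 and 504 CPM in Hbs1l-/- MEFs against 400, 359 and 484 in the controls of that pool (log2 fold change 0.40, adjusted p = 0.0048, edgeR). With Pelo it had 672, 619 and 744 CPM against 402, 364 and 484 (0.70, adjusted p = 0.000556). With Upf2 the values were 580, 595 and 567 CPM against 401, 357 and 470 (0.51, adjusted p = 0.000711). None of the groups overlapped their controls. Asns had 515, 445 and 574 CPM in Pelo-/- MEFs against 330, 283 and 394 (0.61, adjusted p = 0.00305). In the libraries labelled Upf2-/- it had 469, 419 and 408 CPM against 322, 292 and 392 (0.37, adjusted p = 0.0106). Asns of Hbs1l-/- MEFs, at 402, 404 and 365 CPM against 327, 289 and 391, overlapped its controls (0.22, adjusted p = 0.0836). The highest control there was replicate 3, and without it the adjusted p was 0.00304. Phgdh rose in Hbs1l-/- (0.45, adjusted p = 0.0103) and Pelo-/- MEFs (0.69, adjusted p = 0.000134), and its value with Upf2 was 0.27 (adjusted p = 0.08), under the limit on its reads given above. With Upf2 it passed without mutant replicate 2 (0.37, adjusted p = 0.0431) and without control replicate 2 (0.37, adjusted p = 0.0215).

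Of the 2 mitochondrial folate enzymes, Shmt2 rose in all 3 genotypes, and Mthfd2 passed in none, though close to the threshold with Pelo. Shmt2 had 296, 327 and 278 CPM in Hbs1l-/- MEFs against 206, 193 and 215 (log2 fold change 0.55, standard error 0.07, adjusted p = 7.82e-05, edgeR). In Pelo-/- MEFs it had 356, 358 and 405 CPM against 203, 195 and 215 (0.87, standard error 0.07, adjusted p = 1.33e-05). With Upf2 it had 393, 382 and 388 CPM against 212, 190 and 219 (0.90, standard error 0.07, adjusted p = 3.38e-06). In each genotype the 3 libraries lay above the controls of their pool. Mthfd2, the next enzyme of the pathway, gave 0.07 with Hbs1l, 0.24 with Pelo (adjusted p = 0.0502) and 0.25 with Upf2 (adjusted p = 0.0716). Its 3 Pelo-/- libraries at 161, 157 and 176 CPM were above the controls at 141, 123 and 154, while the other genotypes overlapped. With no filter on low counts Mthfd2 passed with Pelo (adjusted p = 0.0418), as it did without mutant replicate 2 (adjusted p = 0.0454), and without control replicate 3 it passed with Pelo (adjusted p = 0.0216) and Upf2 (adjusted p = 0.00332). The difference between the 2 enzymes was not tested.

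Chac1 fell in Hbs1l-/- MEFs, whereas Trib3 rose in the other genotypes. Chac1 had 13.6, 13.9 and 11.9 CPM in Hbs1l-/- MEFs against 17.3, 15.3 and 19.2 (log2 fold change -0.39, adjusted p = 0.0319, edgeR). This drop rested on few counts, from 83 to 214 per library, and it missed the threshold in 4 of the 6 fits that left out 1 library and with DESeq2 (adjusted p = 0.0761). Chac1 gave 0.16 with Pelo (95% interval -0.17 to 0.48) and -0.01 with Upf2 (-0.32 to 0.30). Trib3 had 45.1, 40.0 and 42.3 CPM in the libraries labelled Upf2-/- against 21.4, 17.5 and 21.2 (1.08, adjusted p = 1.56e-05). With Pelo it had 29.6, 27.5 and 45.8 CPM against 20.3, 15.9 and 23.5 (0.80, adjusted p = 0.00945). It did not pass in Hbs1l-/- MEFs, where 19.9, 23.8 and 16.6 CPM overlapped 19.9, 14.8 and 23.6 (0.03, 95% interval -0.35 to 0.42).

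All 3 transporters rose in Pelo-/- MEFs and in the libraries labelled Upf2-/-. In Hbs1l-/- MEFs, with all libraries included, Slc7a5 was the transporter called. Slc7a11 had 24.9, 18.8 and 26.8 CPM in Pelo-/- MEFs against 10.7, 8.08 and 12.8 (log2 fold change 1.17, adjusted p = 0.000563, edgeR). With Upf2 it had 18.6, 16.1 and 17.3 CPM against 10.3, 8.18 and 12.8 (0.73, adjusted p = 0.00364). In Hbs1l-/- MEFs 12.2, 11.6 and 9.54 CPM overlapped 9.66, 8.24 and 13.96 (0.07). Slc7a5, which exports glutamine in exchange for leucine together with Slc3a2, had its largest change with Upf2. It had 352, 290 and 337 CPM there against 172, 153 and 180 (0.95, adjusted p = 1.13e-05). In Pelo-/- MEFs it had 254, 247 and 327 CPM against 178, 152 and 183 (0.69, adjusted p = 0.000846), and in Hbs1l-/- MEFs 213, 237 and 198 against 168, 150 and 178 (0.38, adjusted p = 0.0027). No group of Slc7a5 overlapped its controls. Slc7a3 had 38.8, 33.6 and 58.9 CPM in Pelo-/- MEFs against 26.2, 24.1 and 29.8 (0.72, adjusted p = 0.0112). With Upf2 it had 48.1, 35.9 and 38.0 CPM against 24.7, 21.0 and 29.8 (0.68, adjusted p = 0.00227). Slc7a3, the member that changed most in embryos, gave 0.21 in Hbs1l-/- MEFs (adjusted p = 0.21). Without control replicate 3 its value there was 0.36, which passed the threshold (adjusted p = 0.0234). The difference between its change in embryos and in these MEFs was 1.61 (standard error 0.26, adjusted p = 0.00213 in edgeR's test over 12 libraries), where 4.2% of all genes were called higher. Tissue, strain, batch and the way Hbs1l was lost change together there and cannot be told apart.

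**Figure D3:**
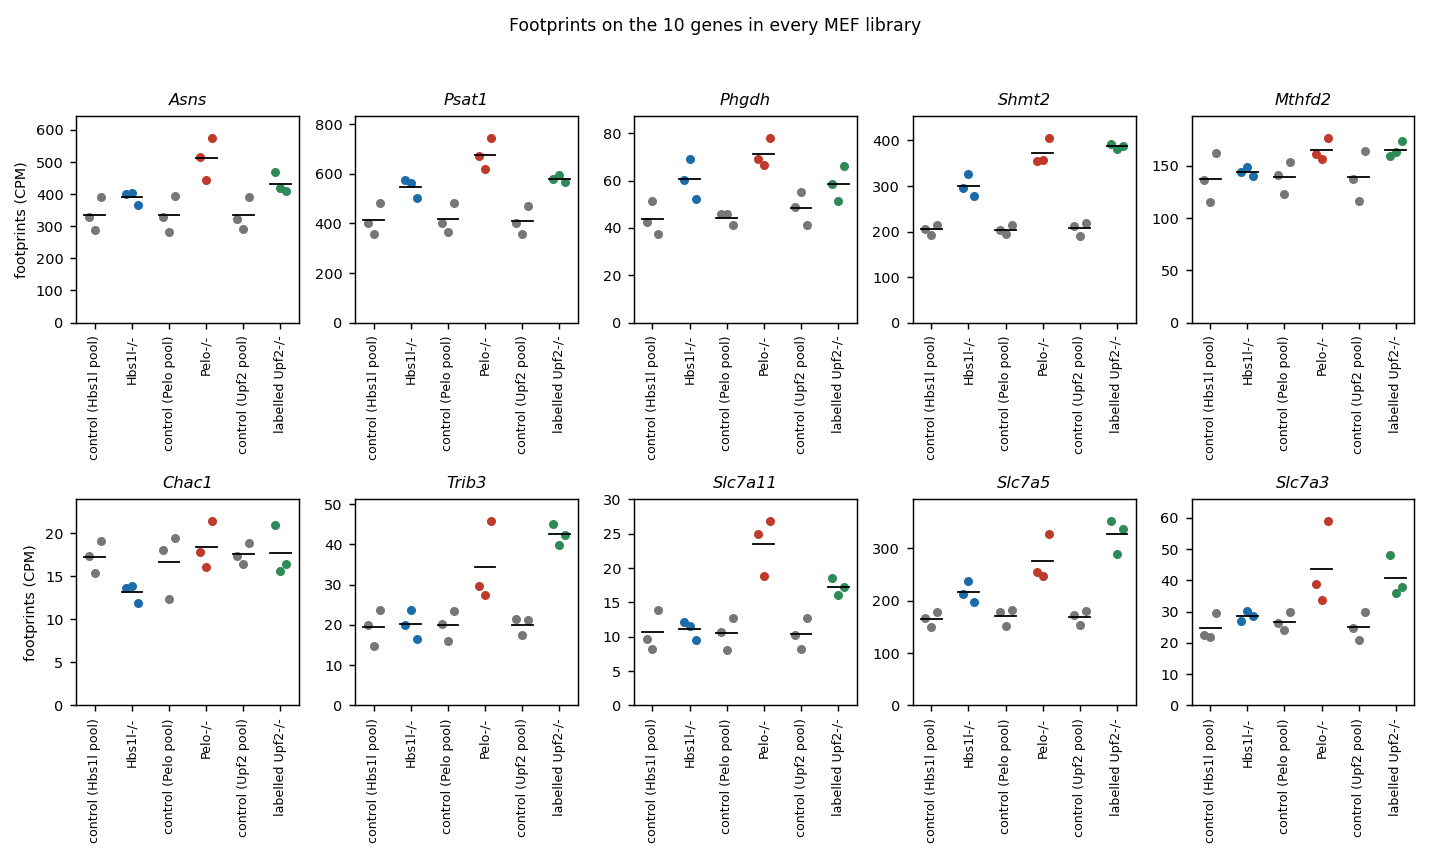
Footprints on the 10 genes in the 18 MEF libraries, in CPM from 0; each point is 1 library and bars are means of 3. Controls of each pool stand to the left of their mutant. Shmt2 and Psat1 are above the controls in all 3 genotypes, and Chac1 is below them in Hbs1l-/- cells.

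Differences between genotypes were tested as interactions over the 12 footprint libraries of a pair, each mutant against its own controls. The 6 control libraries entered as separate samples although those of equal number agreed closely between pools, so that n is above the number of controls shown to be distinct and the errors and p-values rest on that. The change of Slc7a11 was larger in Pelo-/- than in Hbs1l-/- MEFs by 1.10 (standard error 0.29, adjusted p = 0.0387, edgeR), where 3.45% of all genes were called higher. That call was lost in 9 of the 12 fits that left out 1 library, with adjusted p between 0.0601 and 0.117. Trib3 and Slc7a5 changed more in the libraries labelled Upf2-/- than in Hbs1l-/- MEFs, by 1.05 (adjusted p = 0.0100) and 0.57 (adjusted p = 0.0164), where 2.88% of all genes were called higher. No member was called between Pelo-/- and Upf2-labelled MEFs (edgeR, against 13.0% of all genes), where 1 had an unadjusted p under 0.05 (27.3% of all genes), and the 10 differences lay between -0.28 and 0.44. The mutant libraries were also compared directly, without controls, a choice made after seeing the data. Each genotype was sequenced in its own pool, so genotype and pool cannot be told apart in that comparison. Then 8 members differed between Pelo-/- and Hbs1l-/- MEFs (15.6% of all genes), 2 between Pelo-/- and the libraries labelled Upf2-/- (26.7%) and 6 between the latter and Hbs1l-/- MEFs (16.3%). Slc7a11, Trib3 and Slc7a5 kept their calls in this comparison (1.10, 1.10 and 0.60).

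RNA was measured in the MEFs alone. In Hbs1l-/- MEFs 5 members rose in RNA, where 12.7% of all 15318 genes were called higher. In the libraries labelled Upf2-/- 1 rose, Trib3, against 13.2% of 15983 genes called higher. Pelo-/- MEFs had none that rose and 3 that fell, against 15.5% of 14705 genes called higher and 16.6% called lower. The median change of the members was 0.41, -0.11 and -0.35 in the same order, and that of all genes lay between -0.02 and -0.01.

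The Hbs1l-/- increases were in Psat1, Phgdh, Shmt2, Trib3 and Slc7a5, while Mthfd2 gave 0.06. Asns had 284, 273 and 272 CPM against 193, 202 and 253, also without overlap (0.35, adjusted p = 0.0551), and was called by DESeq2 (adjusted p = 0.0249) and with no filter (adjusted p = 0.0332). Shmt2 RNA had 349, 338 and 381 CPM in Hbs1l-/- MEFs against 188, 210 and 267 in controls (log2 fold change 0.68, adjusted p = 0.00794, edgeR). Psat1 had 699, 716 and 719 CPM against 443, 439 and 547 (0.57, adjusted p = 0.00717). Slc7a5 had 243, 220 and 195 CPM against 107, 144 and 163 (0.67, adjusted p = 0.0163). Phgdh (0.47, adjusted p = 0.0201) and Trib3 (0.53, adjusted p = 0.0258) completed the set, and none of these groups overlapped. Phgdh and Trib3 each missed the threshold in 4 of the 6 fits that left out 1 library and Slc7a5 in 3 of 6. Trib3 (adjusted p = 0.0502) and Slc7a5 (adjusted p = 0.0518) also missed it with the replicate number as a block. By limma on TPM, Phgdh, Trib3 and Slc7a5 all missed it (adjusted p = 0.0785, 0.0701 and 0.0635). The fewest calls with 1 library left out was 2, without Hbs1l-/- replicate 1 or without control replicate 2.

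The 2 RNA libraries of Pelo-/- MEFs lay under the controls for the 3 genes called. Slc7a11 RNA had 2.46 and 1.90 CPM against 3.48, 3.68 and 3.46 (log2 fold change -0.68, adjusted p = 0.0303, edgeR). Chac1 had 11.2 and 9.48 CPM against 13.5, 14.1 and 19.3 (-0.59, adjusted p = 0.0446), and Phgdh 432 and 394 CPM against 524, 483 and 611 (-0.37, adjusted p = 0.0477). These are low levels for Slc7a11, whose counts ran from 44 to 92 in those libraries other than control replicate 3. Psat1 with 382 and 348 CPM against 443, 439 and 547 gave -0.37 (adjusted p = 0.0519), and DESeq2 called it lower (-0.36, adjusted p = 0.0197). Slc7a5 with 176 and 179 CPM against 107, 144 and 163 gave 0.38 (adjusted p = 0.127). None of the 3 calls remained without either Pelo-/- library or without control replicate 3, and limma on TPM called neither Phgdh nor Chac1, Slc7a11 being under its minimum. Without control replicate 1, 7 members were called lower, where 32.8% of all genes were called in either direction.

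With Upf2, Trib3 RNA had 31.3, 38.5 and 53.3 CPM against 17.8, 21.3 and 26.4 in controls (log2 fold change 0.89, adjusted p = 0.0122, edgeR). No call was left without control replicate 2, where Trib3 had an adjusted p of 0.0553. Shmt2 (0.45, adjusted p = 0.059) and Slc7a5 (0.52, adjusted p = 0.0729) missed the threshold here and passed it with DESeq2, so that DESeq2 called 3 members (23.0% of all genes). Between genotypes, with the same 3 controls behind each, mutant RNA libraries were compared directly: 7 members were lower in Pelo-/- than in Hbs1l-/- MEFs, by between 0.32 (Mthfd2) and 0.90 (Psat1) on the log2 scale, where 16.3% of all genes were called lower. Asns, Psat1, Phgdh and Slc7a3 were lower in the libraries labelled Upf2-/- than in Hbs1l-/- MEFs, by between 0.45 and 0.75, where 11.1% of all genes were. Between Pelo-/- and Upf2-labelled MEFs 3 members were called, against 28.9% of all genes: Shmt2 and Trib3 were lower in Pelo-/- and Slc7a3 was higher. Of the 5 fits that left out 1 library, 4 lost the call of Slc7a3 (adjusted p between 0.0855 and 0.186) and the 2 without a Pelo-/- library lost that of Shmt2, which TPM with limma lost as well (adjusted p = 0.0771).

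Translation efficiency (TE), the change in footprints relative to the change in RNA, was tested with 1 model over both kinds of library. In Pelo-/- MEFs 8 members rose in TE, where 21.9% of all 13701 genes were called higher. With Upf2 3 rose, against 7.6% of 13302 genes called higher, and in Hbs1l-/- MEFs none of the 10 was called (edgeR), against 0.0152% of 13146 genes. For Hbs1l, 1 member, Chac1, had an unadjusted p under 0.05 (16.1% of all genes), and DESeq2 called 0 (5.27% of all genes). Footprint and RNA libraries were sequenced in different pools, each with its own controls.

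The largest TE change was that of Slc7a11, 1.84 (standard error 0.28, adjusted p = 0.000266, edgeR) in Pelo-/- MEFs and 1.28 (standard error 0.27, adjusted p = 0.0055) in the libraries labelled Upf2-/-. Its RNA was low in every MEF library, at most 3.85 CPM. That RNA was summed over all forms of the gene, and protein coding forms held from 23.0% to 91.9% of its TPM in controls. They held 67.5% to 82.2% in Pelo-/- and 63.8% to 87.3% in Upf2-labelled MEFs. Psat1 gave 1.08 with Pelo and 0.60 with Upf2, where its adjusted p of 0.0288 missed the threshold in 7 of the 12 fits that left out 1 library. Slc7a3 gave 1.13 with Upf2 (adjusted p = 0.011) and 0.48 with Pelo (adjusted p = 0.225). The other Pelo-/- increases were Trib3 (1.18), Phgdh (1.06), Shmt2 (1.04), Asns (0.95), Chac1 (0.76) and Mthfd2 (0.54), and Slc7a5 gave 0.32 (adjusted p = 0.264). Mthfd2 and Chac1, whose adjusted p values were 0.0151 and 0.0383, each missed the threshold without either Pelo-/- RNA library, and Chac1 did so in 7 of the 11 fits that left out 1 library. Across all genes, the footprint and RNA changes correlated at r = 0.78 in Hbs1l, 0.10 in Pelo-/- and 0.42 in Upf2-labelled MEFs (Pearson, over 11904, 12140 and 12057 genes, which are not independent replicates and share the same libraries).

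**Figure D4:**
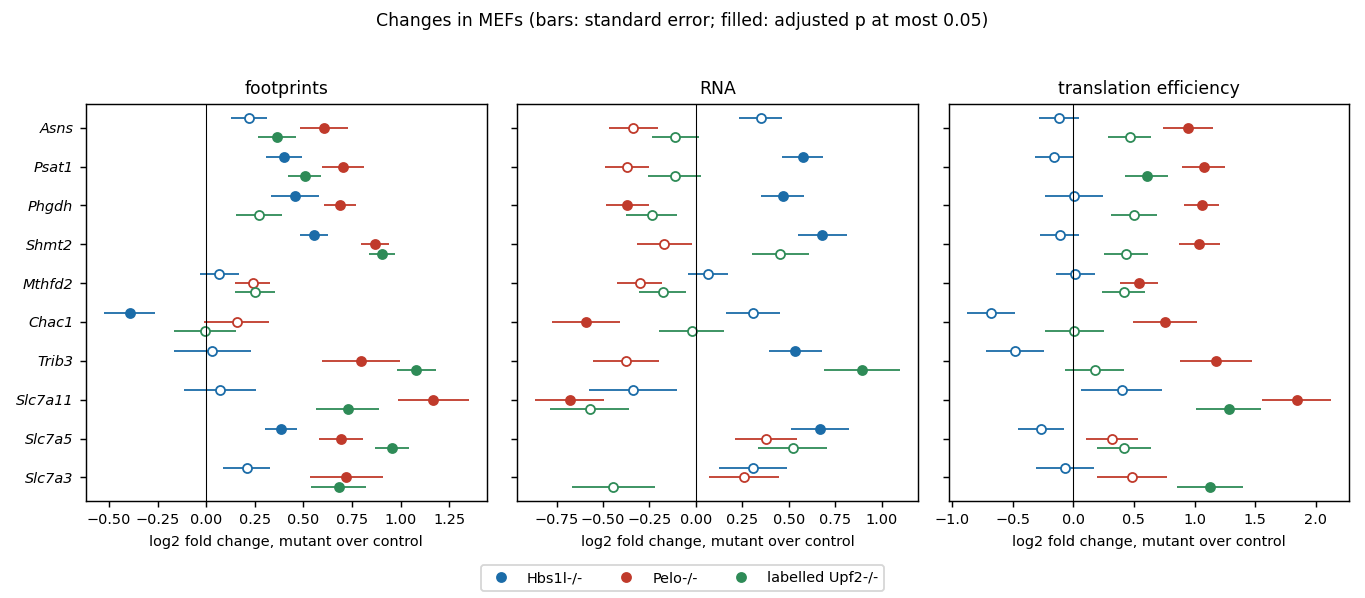
Log2 fold change, mutant over control, of footprints, RNA and translation efficiency in MEFs; bars are standard errors and filled points have an adjusted p of at most 0.05 (edgeR). In Pelo-/- cells 8 genes are filled to the right in footprints and in efficiency, and 3 to the left in RNA.

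By transcript, 51 annotated forms of the 10 genes had RNA values, and between 19 and 20 passed the filter in each comparison. None was called with edgeR in any mutant, where 1.31%, 2.37% and 5.35% of all transcripts were called for Hbs1l, Pelo and Upf2. With 1 library left out, no transcript at all was called for Hbs1l or Pelo, and between 567 and 1278 in place of 2175 for Upf2. At an unadjusted p under 0.05 there were 10, 3 and 4 forms of the members, against 17.7%, 20.1% and 22.0% of all transcripts. DESeq2 called 8, 1 and 3, against 9.49%, 15.4% and 12.1%. The leading transcript of each gene, that with the highest mean TPM in controls, was protein coding. For Asns it held from 97.2% to 99.7% of the gene's TPM over the 4 groups. For Slc7a11 it held from 23.0% to 91.9% in controls and 39.4% to 74.0% in Pelo-/- MEFs. Psat1-201 held 74.4% to 83.1% of Psat1 RNA in controls and 82.9% to 87.4% in the libraries labelled Upf2-/-. Only Mthfd2 has a form annotated as a target of nonsense-mediated decay, and it did not pass the filter.

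Atf4 itself, which encodes the factor, rose in footprints in all 3 MEF genotypes. Its footprints had 174, 173 and 179 CPM in the libraries labelled Upf2-/- against 63.0, 55.6 and 68.8 (log2 fold change 1.49, adjusted p = 5.73e-07, edgeR). In Pelo-/- MEFs it had 105, 88.7 and 138 CPM against 62.9, 60.7 and 66.0 (0.81, adjusted p = 0.00105). In Hbs1l-/- MEFs it had 80.2, 89.5 and 71.3 CPM against 65.8, 56.5 and 67.8 (0.34, adjusted p = 0.0154). Its change was -0.18 in embryos and 0.03 in cerebella, with overlapping groups, and no test of the difference from MEFs is given. Atf4 RNA changed by 1.71 with Upf2 (adjusted p = 4.94e-06), 0.35 with Hbs1l (adjusted p = 0.0348) and 0.27 with Pelo (adjusted p = 0.0907).

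Other genes of the pathway were counted from lists of known members. Their counts in MEF footprints stand against 17.4%, 22.9% and 22.3% of all genes called higher and 16.7%, 21.2% and 21.1% called lower with Hbs1l, Pelo and Upf2. Of 16 sensors and switches of the integrated stress response, 6 rose and 1 fell in Hbs1l-/- footprints, 6 rose and 1 fell in Pelo-/- and 9 rose with Upf2. Atf5, a paralog under the same translational control, rose by 0.67 in Hbs1l-/-, 1.87 in Pelo-/- and 1.42 in Upf2-labelled MEF footprints (adjusted p = 0.00196, 1.25e-05 and 3.13e-07, edgeR). Nupr1 moved in opposite directions, -1.14 with Hbs1l and 1.10 with Upf2. Ddit3, the pro-apoptotic factor CHOP, rose by 3.31 in RNA and by 0.80 in footprints with Upf2 (adjusted p = 5.1e-07 and 0.000152), while its TE there fell by 2.52 (adjusted p = 7.05e-06). The files give 2 gene IDs this symbol, and the values are those of the ID with more RNA. Among 13 ATF4 targets outside amino acid metabolism, of which 12, 13 and 13 were tested with Hbs1l, Pelo and Upf2, 1 rose and 4 fell with Hbs1l, 5 rose and 2 fell with Pelo, and 5 rose and 2 fell with Upf2, and their medians were -0.17, 0.28 and 0.30. Adm2 (1.52 and 2.31) and Stc2 (1.63 and 1.06) rose with Pelo and Upf2, and Gdf15 fell by 0.69 in Pelo-/- footprints.

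The neighbours of the members in metabolism gave mixed counts, to be read against the same shares of all genes. Of 18 other amino acid synthesis genes (17, 18 and 17 tested), 3 rose and 1 fell in Hbs1l-/-, 7 rose and 3 fell in Pelo-/- and 5 rose and 2 fell in Upf2-labelled MEF footprints. Shmt1, the cytosolic counterpart of Shmt2, rose by 0.95, 0.87 and 0.84 in that order, and Ass1, which makes argininosuccinate, fell by 1.00 with Upf2. Of 14 folate genes, 5, 6 and 7 rose and 1 fell in each genotype. Mthfd1l, which follows Mthfd2 in the mitochondrial pathway, rose by 0.76, 0.98 and 1.26 (adjusted p = 3.96e-05, 1.74e-05 and 1.89e-06, edgeR). Of 22 other amino acid transporters (19, 20 and 19 tested), 5 rose and 3 fell, 7 rose and 2 fell, and 9 rose and 3 fell. Slc1a5, the glutamine transporter, rose by 0.86, 1.46 and 1.56, and Slc3a2, the heavy chain that pairs with Slc7a5 and Slc7a11, by 0.23, 0.60 and 0.63. In embryos 2 of the 20 transporters tested rose, against 0.92% of all genes there, Slc38a1 (0.83, adjusted p = 0.0128) and Slc1a4 (0.86, adjusted p = 0.0394). Of 21 cytosolic aminoacyl-tRNA synthetases, 12, 13 and 14 rose in MEF footprints and none fell, with medians of 0.21, 0.23 and 0.27. In RNA, 5 synthetases rose with Hbs1l, 5 fell with Pelo, and 1 rose and 5 fell with Upf2, against 12.7% of all genes called higher with Hbs1l, 16.6% lower with Pelo, and 13.2% higher and 6.76% lower with Upf2. Of 10 glutathione genes (9 tested), 2, 2 and 3 rose and 3, 2 and 2 fell, among them Gsr, glutathione reductase, which rose in all 3 (0.48, 0.71 and 0.42).

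The genes whose footprint pattern over the 18 MEF libraries was most like the mean of the members were Pck2 (r = 0.975), Aldh1l2 (0.970), Dcn (0.961), Prelp (0.961) and Nkd2 (0.958), out of 9786 genes with at least 5 CPM on average. Likeness was Pearson's correlation of log2 CPM centred on each pool's controls, and the points share libraries and controls. Pck2, mitochondrial phosphoenolpyruvate carboxykinase, rose by 0.51, 0.96 and 0.87 in Hbs1l-/-, Pelo-/- and Upf2-labelled MEFs, and Aldh1l2, a mitochondrial folate dehydrogenase, by 0.68, 1.25 and 1.04. Dcn and Prelp encode proteoglycans of the extracellular matrix, and Dcn rose by 0.76, 1.86 and 1.46. Measured in the same way against the mean that includes them, Slc7a3 (0.959), Slc7a11 (0.957), Asns (0.954), Psat1 (0.947), Slc7a5 (0.946), Trib3 (0.936) and Shmt2 (0.931) followed it closely, Mthfd2 (0.848) and Phgdh (0.626) less so, and Chac1 (0.452) least.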

How the data were processed

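Footprint counts are whole-number reads per gene, which the authors made by clipping adapters with fastx_clipper, removing ribosomal and other abundant RNA with Bowtie2 2.2.3, aligning to mm10 with HISAT2 2.1.0 and counting reads in coding sequences with featureCounts. For the poly(A) RNA of MEFs the authors deposited estimated counts and TPM per transcript from kallisto 0.42.4, which were summed to genes here, the estimated counts being rounded to whole numbers. Tools were credited as in the submitters' processing notes and the study's methods.

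Genes were tested with edgeR 4.0.16 in R 4.3.3 (TMM scaling, filterByExpr, quasi-likelihood fits, Benjamini-Hochberg adjustment over all genes tested, threshold 0.05). Each footprint comparison used its own mutants and controls. Translation efficiency was the difference between the footprint and RNA changes, fitted in 1 model. Histone genes were left out of footprint and efficiency tests. Alternatives were DESeq2 1.42.0, RLE factors, no filter, histone genes kept in, the replicate number as a block, each library left out in turn and, for RNA, limma 3.58.1 on log2(TPM + 1) with at least 1 TPM. Each kind of fit was checked on simulated counts with 200 changed genes.

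The members and gene lists were chosen with earlier results of these data known. The text names the members, the targeted genes, up to 4 genes per list and comparison by adjusted p, and the 5 genes most like the members. Atf4 and Slc3a2 were added after their values were seen. A further Pelo-/- RNA library was left out by the submitters and not analysed here. Depth, given as ranges in the results, limits genes with few counts.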

Additional observations from a re-analysis of the deposited data

Results flagged for a closer look

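Changes that differed between genotypes or between tissues are given here, each from a test of the difference itself (edgeR, adjusted p at most 0.05). In MEF footprints, the change of Slc7a11 was 1.10 larger on the log2 scale in Pelo-/- than in Hbs1l-/- cells (adjusted p = 0.0387), and 9 of the 12 fits that left out 1 library lost this call (adjusted p between 0.0601 and 0.117). The libraries labelled Upf2-/- exceeded Hbs1l-/- cells by 1.05 for Trib3 (adjusted p = 0.0100) and by 0.57 for Slc7a5 (adjusted p = 0.0164). Slc7a3 changed 1.61 more in Hbs1l-/- embryos than in Hbs1l-/- MEFs (adjusted p = 0.00213), where tissue, strain, batch and the way Hbs1l was lost also differ.

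In RNA, 7 members were lower in Pelo-/- than in Hbs1l-/- MEFs, where 16.3% of all genes were called lower. Pelo-/- minus Hbs1l-/- MEF RNA was -0.90 for Psat1, -0.81 for Shmt2, -0.80 for Phgdh, -0.64 for Asns and -0.32 for Mthfd2. The stress-induced genes Trib3 and Chac1 gave -0.87 and -0.86. The adjusted p of these 7 genes lay between 0.000408 and 0.0169. Libraries labelled Upf2-/- minus Hbs1l-/- gave -0.45 for Asns, -0.68 for Psat1, -0.70 for Phgdh and -0.75 for Slc7a3 (adjusted p between 0.0047 and 0.0296). There 11.1% of all genes were called lower. Pelo-/- minus Upf2-labelled RNA was -0.59 for Shmt2 (adjusted p = 0.0132), -1.24 for Trib3 (adjusted p = 0.00346) and 0.74 for Slc7a3 (adjusted p = 0.038), where 28.9% of all genes were called in either direction. RNA of Pelo-/- MEFs came from 2 libraries. With 1 library left out, Slc7a3 lost its call in 4 of 5 fits here and in 4 of 6 against Hbs1l-/-, Shmt2 in 2 of 5, and Mthfd2 in 2 of 5 against Hbs1l-/-.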

How the results depend on the processing

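Of 1228 alternative values for the members, 1080 kept their direction and side of the threshold, 82 lost a call, 45 gained one and 21 changed sign, and the cause of these changes was not tested. Counts of members called moved by over 1.5 times as follows. The share of all features called in the same fit follows each count in brackets. DESeq2 called 1 in cerebellum footprints (3.18%), 3 in Upf2-labelled RNA (23.0%), 2 between embryos and cerebella (4.20%), 4 between embryos and MEFs (11.9%), and 8, 1 and 3 in the transcripts of Hbs1l-/-, Pelo-/- and Upf2-labelled MEFs (9.49%, 15.4% and 12.1%). With no filter 8 were called in Pelo-/- RNA (15.6%), of which 7 were lower and Slc7a5 was higher, 3 in Upf2-labelled RNA (11.2%) and 2 between embryos and MEFs (6.42%). RNA tested as TPM with limma gave 2 calls for Hbs1l (13.6%) and 0 for Pelo (14.1%), and ended that of Mthfd2 in Pelo against Hbs1l (adjusted p = 0.0828). Comparing mutant MEF footprints directly, chosen after seeing the data, gave 8 calls for Pelo against Hbs1l (15.6%), 2 for Pelo against Upf2 (26.7%) and 6 for Upf2 against Hbs1l (16.3%). Genotype and sequencing pool change together in those direct comparisons. The replicate numbers were not shown to pair the samples, though these values do not exclude pairing. In embryos the deviations of equal-numbered libraries correlated at 0.02, 0.02 and 0.07, and in cerebella at 0.36, -0.23 and 0.22. No comparison had every pair over 0.1, though in Hbs1l-/- MEF footprints every sample correlated best with its own number. With the replicate block 3 members were called in Hbs1l (18.4%), 1, Slc7a5, which was higher, in Pelo (20.1%) and 3 in Upf2-labelled RNA (20.7%), 5 in Upf2-labelled TE (16.3%) and 3 between embryos and MEFs (9.10%). Chac1, too low to be tested in embryos alone, was 1 of the members called between embryos and MEFs by DESeq2, with no filter and with the block. Chac1 and Slc7a11 entered that comparison through the MEFs, and their values in it say nothing of a change in embryos. The block also called footprints of Slc7a5 in embryos (adjusted p = 0.0430) and of Mthfd2 with Pelo (0.00886) and Upf2 (0.0432), and ended the RNA calls of Slc7a3 in Upf2 against Hbs1l (0.0651) and Mthfd2 in Pelo against Hbs1l (0.0716).

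With each library left out in turn, footprint calls ranged from 1 to 4 in embryos, 0 to 1 in cerebella, 4 to 6 in Hbs1l, 8 to 9 in Pelo and 7 to 8 in Upf2-labelled MEFs. RNA calls ranged from 2 to 7, 0 to 7 and 0 to 3 in these genotypes, and TE calls from 0 to 0, 6 to 9 and 2 to 5. Over all genes, the shares called in these fits ranged from 0.247% to 20.3% in embryos and 0% to 3.84% in cerebella, from 24.04% to 33.5%, 33.2% to 41.6% and 34.2% to 42.2% in MEF footprints, from 11.1% to 17.8%, 9.71% to 32.8% and 10.6% to 18.8% in RNA, and from 0% to 0.297%, 29.0% to 40.8% and 10.2% to 20.7% in TE. Differences between genotypes gave 0 to 1 (Pelo against Hbs1l), 0 to 1 (Pelo against Upf2) and 2 to 3 (Upf2 against Hbs1l) in footprints and 6 to 8, 1 to 3 and 3 to 5 in RNA, where all genes gave 3.00% to 5.82%, 8.53% to 13.7% and 2.82% to 4.67% in footprints and 12.0% to 43.0%, 8.54% to 37.1% and 16.2% to 22.9% in RNA. Embryos against cerebella gave 0 to 2 (0.0532% to 7.47%), embryos against MEFs 1 to 4 (3.45% to 20.9%), and transcripts 0 (at most 3.14%). Values never called changed sign in footprints for Shmt2 in embryos (-0.084 to 0.13), Chac1 (-0.12 to 0.061) and Trib3 (-0.30 to 0.72) in cerebella, Mthfd2 (-0.047 to 0.20), Trib3 (-0.14 to 0.20) and Slc7a11 (-0.087 to 0.32) with Hbs1l in MEFs, and Chac1 with Pelo (-0.021 to 0.28) and Upf2 (-0.13 to 0.087). In RNA they did so for Mthfd2 with Hbs1l (-0.022 to 0.17), and for Asns (-0.19 to 0.014) and Chac1 (-0.17 to 0.16, and 0.014 with no filter) with Upf2. Asns in embryos lost its call without any 1 control, and Slc7a5 there was called by DESeq2 (adjusted p = 0.027) and with no filter (adjusted p = 0.0315). Chac1 and Slc7a11 in embryos did not pass the filter on low counts.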
